A study of Homo sapiens with 32 samples.

Results

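The genes EWSR1 and FLI1, whose fusion drives most Ewing sarcomas, and 8 other ETS factors, namely ERG, ETS1, ETS2, ETV1, ETV4, ETV5, ETV6 and ELK3, were followed through a series of RNA-seq libraries from Ewing sarcoma cell lines. The 10 genes were chosen by symbol among the 28278 gene symbols of each count table and, by Ensembl gene, among the 60107 genes of a knockdown table. All 10 had a read in at least 1 library of the A673 clones, and 9 had a read in the knockdown libraries. Most libraries came from the cell line A673, and all of its edited clones were derived from 1 clone with an inducible Cas9, called here the WT clone. Experiment 1 compared 2 WT clone libraries (a and b) and 1 parental A673 library with 2 STAG2 KO libraries, whose columns are numbered 5 and 24. Experiment 2 compared 2 WT clone libraries and 1 parental library with 3 STAG2 KO clones, 3 EZH2 KO clones and 3 SUZ12 KO clones. Experiment 3 compared 1 WT clone library and 1 parental library with 3 STAG1 KO libraries, whose columns are numbered 1, 5 and 7. Experiment 4 compared 3 libraries of mock transfected A673 cells with 3 libraries of A673 cells transfected with an siRNA against STAG2. The line SK-N-MC was sequenced with STAG2 and after its knockout, and the line A4573, which lacks the STAG2 protein in the study's description, was sequenced as such (labelled WT, iCas9) and after a knock-in that restored STAG2 (labelled STAG2 KI), with 1 library per arm. The labels title each knockout library of A673 as a clone of its own, so the spread within a knockout group includes differences between clones, whereas WT clone libraries were repeats of 1 clone. A STAG2 KO column numbered 5 stands in both experiments, and whether these are the same clone is not settled by the column names.

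ETS factors share a DNA-binding domain that reads a GGAA core. In Ewing sarcoma a translocation joins the amino-terminal part of EWSR1, an RNA-binding protein of the FET family, to the DNA-binding part of FLI1, and the fusion protein EWS::FLI1 binds single GGAA sites and GGAA repeats. In rarer tumours the partner is another ETS gene, among them ERG, FEV, ETV1 and ETV4. ETV1, ETV4 and ETV5 form the PEA3 group, which is commonly induced by receptor tyrosine kinase signalling. STAG2 and STAG1 are alternative subunits of cohesin, the ring complex that forms chromatin loops, while EZH2 and SUZ12 are core subunits of the Polycomb complex PRC2, which places the repressive H3K27me3 mark.

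The genes lie as close pairs in some cases. On GRCh38 (GENCODE 44), ETS1 (ENSG00000134954) occupies chr11:128458761-128587558 on the minus strand and FLI1 (ENSG00000151702) chr11:128686535-128813267 on the plus strand, with a gap of 98.98 kb between them. ERG (ENSG00000157554) occupies chr21:38380027-38661780 on the minus strand and ETS2 (ENSG00000157557) chr21:38805183-38824955 on the plus strand, with a gap of 143.4 kb. EWSR1 (ENSG00000182944) lies on chr22:29268009-29300525, plus strand. The protocol describes libraries that do not keep strand, and 6 of the 10 genes share exonic bases with another gene, so reads from those overlaps cannot be told apart. The partner is on the opposite strand for EWSR1 (RHBDD3), FLI1 (SENCR and ENSG00000245008), ETV4 (DHX8), ETS2 (ENSG00000205622) and ELK3 (ENSG00000258177), and on the same strand for ETV5 (DGKG). The knockdown columns carry a forward mark in their names, so whether their reads were counted by strand is not known. Reads from the fusion transcript likewise count towards EWSR1 or FLI1.

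RefSeq promoters (GRCh38.p14) were matched for 6 of the 10 genes, and 3 are printed because the results turn on them: EWSR1, which drives the fusion and was called in no A673 comparison, and ERG and ETS2, the neighbours on chromosome 21 that moved differently. Each is the 250 bases before the annotated start, 5′ to 3′ on the gene's strand, with the core GGAA or its reverse complement TTCC in capitals (both strands searched, the letters cannot overlap one another).
EWSR1, chr22:29268018-29268267, plus strand: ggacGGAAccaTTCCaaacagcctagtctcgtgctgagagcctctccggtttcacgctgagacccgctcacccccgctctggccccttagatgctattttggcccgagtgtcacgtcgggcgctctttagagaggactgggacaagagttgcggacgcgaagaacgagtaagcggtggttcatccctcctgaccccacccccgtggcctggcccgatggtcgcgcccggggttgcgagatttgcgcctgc
ERG, the most distal start, chr21:38660668-38660917, minus strand: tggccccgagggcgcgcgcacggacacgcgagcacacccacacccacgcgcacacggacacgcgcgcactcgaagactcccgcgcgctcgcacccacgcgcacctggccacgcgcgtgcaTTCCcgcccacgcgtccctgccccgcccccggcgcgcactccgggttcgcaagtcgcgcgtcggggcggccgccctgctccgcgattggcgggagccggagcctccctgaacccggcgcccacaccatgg
ETS2, chr21:38804933-38805182, plus strand: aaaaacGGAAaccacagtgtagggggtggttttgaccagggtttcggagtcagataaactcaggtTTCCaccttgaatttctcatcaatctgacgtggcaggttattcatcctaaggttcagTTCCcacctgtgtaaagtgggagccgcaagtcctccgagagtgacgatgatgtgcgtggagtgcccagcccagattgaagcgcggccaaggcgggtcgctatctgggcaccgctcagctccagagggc
The EWSR1 window holds 2 such cores, the ERG window 1 and the ETS2 window 3, against a median of 3 over the 35116 promoters of that table. At least 1 core is present in 92.74% of all promoters, at least 2 in 76.51% and at least 3 in 55.13%, so these matches describe the windows and do not set them apart. The tandem repeat GGAAGGAA is in none of the 3 windows and in 3.064% of all promoters, and among the matched genes 2 of the ETV1 starts hold it. The printed ERG window has 44 CpG dinucleotides and 77.2% G and C. As many CpG are found in only 0.7689% of promoters, whereas the 22 CpG of EWSR1 are reached by 28.02% and the 12 of ETS2 by 48.51%. The 3 other ERG starts have only 2 to 3 CpG and 36.4% to 46.4% G and C, and a second ETS2 start holds 6 cores, a number reached by 9.138% of promoters, so these figures belong to the windows shown. The ERG start shown is the most distal among the RefSeq starts only. The ERG and EWSR1 windows lie inside the GENCODE spans given above, so GENCODE places a start further upstream for both genes. Which start is used in these cells was not tested.

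Total counts ranged from 15734628 to 20663679 over the 22 A673 clone libraries and from 29322507 to 32261248 over the 4 libraries of the other lines, and the 6 knockdown libraries held 6852340 to 8184632 reads. Levels are given as normalized CPM (read counts scaled to a common library size with TMM factors, set separately for the A673 clones and for the other lines) or, for the knockdown, as the normalized reads deposited by the authors. The targeted genes were lower in their knockouts: STAG2 was 292 ± 32.1 (SD, n = 6) in the controls of experiments 1 and 2 and 85.1 ± 58.3 (n = 5) in STAG2 KO, where library 24 kept 187.8. EZH2 was 28.5 to 56.0 in EZH2 KO against 164.9 to 187.6 in controls, and SUZ12 was 11.2 to 20.7 in SUZ12 KO against 57.7 to 64.3. The STAG1 transcript was not lower in every STAG1 KO library: the library labelled STAG1 KO 1 held 61.8 CPM, between its controls at 57.1 and 68.2, while libraries 5 and 7 held 15.0 and 32.7. These data hold no protein level, so the transcript alone does not decide whether that label is right. In STAG2 KO of experiment 2, clone 5 stood apart from clones 3 and 2 over all genes (mean chi-square per gene 112.8 and 140.2, against 25.7 between clones 3 and 2). The WT clone libraries of experiment 1 were the closest pair (1.33, against 9.41 to 140.2 for the other pairs within a group). They differed by little more than counting error but were kept as 2 libraries. Tests that use them, those of experiment 1 alone above all, may thus rest on fewer independent controls than counted. Of 5 Ewing sarcoma markers, 4 were present and CD99 was listed at 0 counts in every clone library. Summed endothelial markers (8 genes, since ERG, FLI1 and ETS1 are also endothelial factors) were 19.45 to 62.48 CPM in A673 controls with TEK and TIE1 at 0, 26.3 to 167.8 in STAG2 KO with VWF at 0, and 8.91 to 17.93 in EZH2 KO, mostly EMCN in each.

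The members spanned a wide range of levels in unedited A673 cells. Per kb of transcript and averaged over the 8 control libraries of experiments 1 to 3, normalized CPM per kb was highest for EWSR1, at 139 ± 12.9 (SD, n = 8, as for the values that follow). ELK3, a repressor of the ternary complex subfamily, followed with 32.8 ± 3.28, ahead of ETV5 (22.2 ± 3.50) and FLI1 (18.6 ± 2.32). ETV1 was at 9.98 ± 2.20, ETS2 at 9.11 ± 1.12, ETV4 at 6.37 ± 3.58 and ETV6 at 3.94 ± 0.729 CPM per kb. ETS1 was near the bottom at 0.40 ± 0.415, and ERG had no read. In this order EWSR1 did not overlap with ELK3, FLI1 not with ETV1, ETV6 not with ETS1 and ETS1 not with ERG, whereas the other neighbours overlapped in their ranges.

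**Figure D1:**
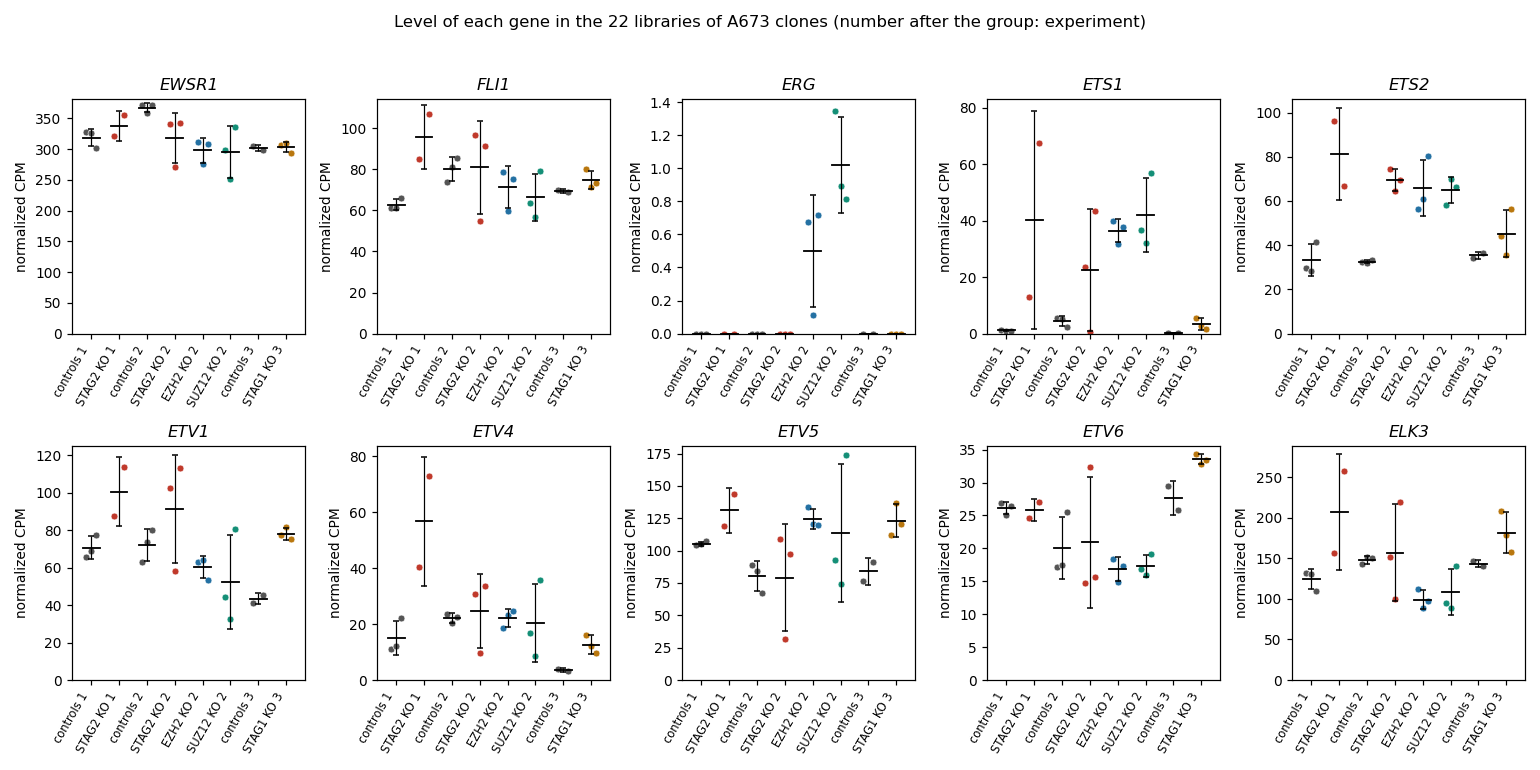
Normalized CPM of the 10 genes in the 22 A673 clone libraries, 1 panel per gene, by group on the horizontal axis; points are libraries, lines are group means and bars are 1 SD cut at 0. ETS2 sits between 28.3 and 41.4 in the controls of experiments 1 and 2 and between 64.7 and 96.1 in STAG2 KO, and ERG is above 0 only in EZH2 KO and SUZ12 KO.

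EWSR1 and FLI1, the partners in the fusion, were not called in STAG2 KO over both experiments, but FLI1 was called in experiment 1 alone. EWSR1 was at 327, 326.1 and 302.1 CPM in the controls of experiment 1 and at 371.5, 359.1 and 371.7 in those of experiment 2. In STAG2 KO it was at 320.9 and 355.1 (libraries 5 and 24) and at 341.6, 270.6 and 341.7 (clones 3, 5 and 2). The groups overlapped, the lowest value being that of clone 5, and the log2 fold change was -0.09 (SE 0.0954, adjusted p = 0.600, edgeR quasi-likelihood test with Benjamini-Hochberg adjustment, as for all clone comparisons here). FLI1 was at 61.4, 61.1 and 66.0 CPM in the controls of experiment 1, against 84.9 and 106.8 in STAG2 KO, so these libraries did not overlap. In experiment 2 the controls held 74.1, 81.3 and 85.7, and STAG2 KO clones 3, 5 and 2 held 96.8, 55.0 and 91.3, with clone 5 below every control. Over both experiments the log2 fold change of FLI1 was 0.26 (SE 0.159, adjusted p = 0.327); it was 0.57 in experiment 1 alone (adjusted p = 0.0280) and -0.01 in experiment 2 alone (adjusted p = 0.982). Without clone 5 it was 0.40 with an adjusted p of 0.0156, and without library 24 it was 0.14 with an adjusted p of 0.640.

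FLI1 reads were also set against EWSR1 reads within each library, which removes library scaling. They made up 18.7% to 23.1% of the EWSR1 count in the 6 controls of experiments 1 and 2 (20.8% ± 1.93). In STAG2 KO the shares were 26.5% and 30.1% in experiment 1 and 28.3%, 20.3% and 26.7% in clones 3, 5 and 2 of experiment 2. All STAG2 KO libraries but clone 5 therefore lay above every control. EZH2 KO libraries were at 21.8% to 25.4%, SUZ12 KO libraries at 21.3% to 23.6% and STAG1 KO libraries at 23.1% to 26.1%, against 23.0% in both controls of experiment 3. In the knockdown the shares overlapped, with 50%, 32.9% and 40.0% in mock libraries 1, 3 and 2 and 43.8%, 41.4% and 39.2% in siSTAG2 libraries 2, 1 and 3. These shares are a description with no test, and differ in level between tables that were made separately.

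**Figure D2:**
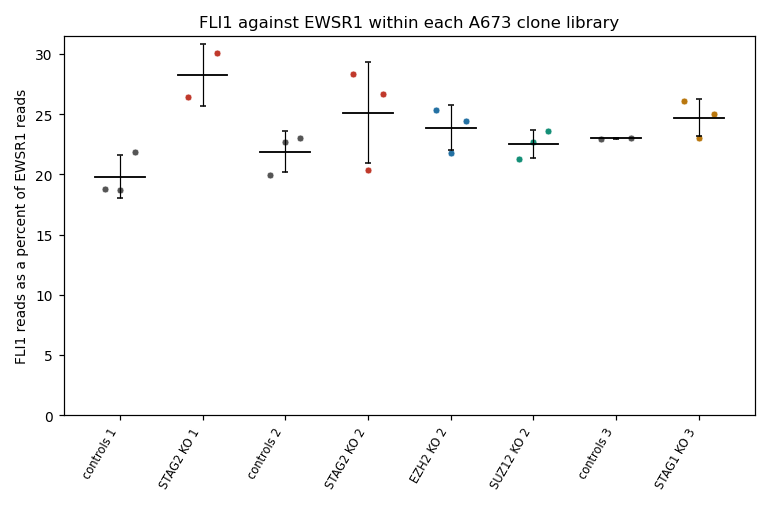
FLI1 reads as a percentage of EWSR1 reads in each library (vertical axis), by group (horizontal axis). The STAG2-proficient A673 libraries of experiments 1 and 2 lie between 18.7% and 23.1%, and 4 of the 5 STAG2 KO libraries lie above them.

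Loss of STAG2 was followed by higher ETS1 and ETS2. ETS1, a founding ETS factor, was at 1.21, 0.997 and 1.04 CPM in the controls of experiment 1 and at 12.9 and 67.6 in STAG2 KO libraries 5 and 24. In experiment 2 the controls were at 5.56, 5.05 and 2.37, and STAG2 KO clones 3, 5 and 2 were at 23.6, 0.532 and 43.5. Every STAG2 KO library but clone 5 was above all controls, and clone 5 was below all of them. ETS1 rose by a log2 fold change of 3.61 (SE 0.917, adjusted p = 0.0260), and the call was lost in 5 of the 11 fits that left out a library, with adjusted p up to 0.0806. By experiment it was 5.17 in experiment 1 (adjusted p = 0.0110) and 2.35 in experiment 2 (adjusted p = 0.258), and without clone 5 it was 4.03 (adjusted p = 0.000556). Without library 24, which had the highest ETS1 and kept the most STAG2, it was 2.77 (adjusted p = 0.0457).

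ETS2, which is activated through the RAS and MAP kinase pathway, was steadier. It was at 29.5, 28.3 and 41.4 CPM in the controls of experiment 1 and at 96.1 and 66.7 in STAG2 KO libraries 5 and 24. It was at 32.5, 31.9 and 33.1 in the controls of experiment 2 and at 74.4, 64.7 and 69.6 in clones 3, 5 and 2. The groups did not overlap in either experiment, clone 5 included. ETS2 rose by 1.17 on the log2 scale (SE 0.125, adjusted p = 0.000255), with 1.26 and 1.08 in the separate experiments (adjusted p = 0.0181 and 0.00778), and it remained called in all 11 fits that left out a library.

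The PEA3 group, ETV6 and ELK3 did not pass the test over both experiments. ETV4 had a log2 fold change of 0.95 (SE 0.404, adjusted p = 0.161), ETV1 of 0.40 (SE 0.158, adjusted p = 0.131) and ETV5 of 0.11 (SE 0.249, adjusted p = 0.833). ETV4 was at 11.1, 12.02 and 22.1 CPM in the controls of experiment 1 against 40.4 and 73.1 in STAG2 KO, and at 23.6, 20.3 and 22.6 in the controls of experiment 2 against 30.7, 9.63 and 33.7 in clones 3, 5 and 2. As with FLI1, clone 5 was the library below the controls and the others were above. In experiment 1 alone ETV4 rose by 1.87 (adjusted p = 0.0225), and in experiment 2 alone it was at 0.13 (adjusted p = 0.875). ELK3 had a value of 0.36 (SE 0.207, adjusted p = 0.303), and ETV6, a transcriptional repressor, of 0.02 (SE 0.214, adjusted p = 0.97). ERG had no read in any control or STAG2 KO library and was not tested.

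In all, 2 of the 9 members tested were called higher and none lower by edgeR, while 12.4% of the 13574 genes tested were called, 6.67% higher and 5.76% lower. The median log2 fold change of the members was 0.36, against 0.04 over all genes tested. Without clone 5 there were 7 members called higher, namely ETS1, ETS2, FLI1, ETV1, ETV4, ETV5 and ELK3, while 4048 genes were called in place of 1687.

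**Figure D3:**
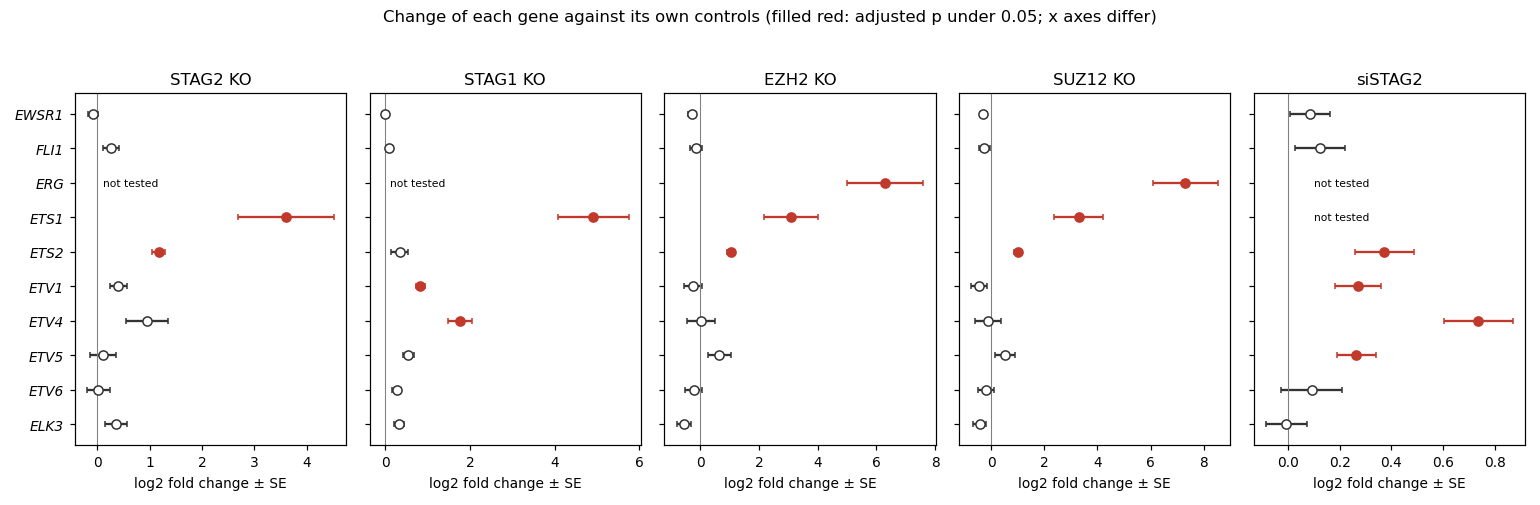
Log2 fold change of each member (horizontal axis, bars are 1 SE) in 5 comparisons, with filled red points where the adjusted p was below 0.05. ETS2 is near 1 in STAG2 KO (1.17), EZH2 KO (1.04) and SUZ12 KO (1.02), and EWSR1 and FLI1 have no red point.

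Clones without STAG1, the other cohesin subunit, showed higher ETS1, ETV1 and ETV4. ETV1 was at 41.4 CPM in the parental library and 45.5 in the WT clone, and at 77.4, 81.8 and 75.1 in the libraries labelled STAG1 KO 1, 5 and 7. ETV1 rose by 0.83 (SE 0.0951, adjusted p = 0.0213), and the 2 groups did not overlap. ETV4 was at 4.12 and 3.23 in these controls and at 16.3, 12 and 9.75 in the STAG1 KO libraries, again apart, and rose by 1.76 (SE 0.288, adjusted p = 0.0323). ETS1 had 1 and 3 counts in the controls and 88, 49 and 34 in the STAG1 KO libraries. Its fitted log2 fold change was 4.92 (SE 0.833, adjusted p = 0.0355), and the ratio of its scaled counts was 31.4 with an exact Poisson 95% interval of 12.1 to 117, which covers counting error only. ETS1 passed the filter on low counts only through the STAG1 KO libraries, so its call adds nothing to these counts. The 3 genes were above both controls also in the library labelled STAG1 KO 1, whose STAG1 transcript level was that of a control.

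The remaining members of that comparison did not pass the test. ETV5 had a value of 0.54 (SE 0.131, adjusted p = 0.0713 by edgeR, 0.00610 by DESeq2, which called it), ETS2 of 0.34 (SE 0.204, adjusted p = 0.346), EWSR1 of -0.01 (adjusted p = 0.969) and FLI1 of 0.10 (adjusted p = 0.540). Called higher were thus 3 of 9 members, ETS1 among them, against 5.27% of 14373 genes, 2.77% higher and 2.5% lower. With only 2 controls the calls were fragile: leaving out either control left 0 genes called, and leaving out the library labelled STAG1 KO 1 gave 1310 genes and 4 members, with ETV5 added at 0.62 (adjusted p = 0.0399). ETS2 was at 34.1 and 36.6 CPM in these controls and at 43.97, 35.4 and 56.3 in the STAG1 KO libraries, which overlapped.

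The difference between the STAG2 KO effect and the STAG1 KO effect was tested as such. None of the 9 members was called by edgeR, 1 had an unadjusted p below 0.05, and DESeq2 called 1, while 6.11% of 14696 genes were called, 2.36% higher and 3.75% lower. That member was ETS2, whose STAG2 KO effect exceeded its STAG1 KO effect by 0.79 (SE 0.249, adjusted p = 0.0816 by edgeR and 0.0350 by DESeq2). For ETS1 the difference was -1.34 with an SE of 1.98 (adjusted p = 0.803), too wide to order the 2 effects. For ETV1 and ETV4 it was -0.47 and -0.86 (adjusted p = 0.368 and 0.592).

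Loss of PRC2 subunits was followed by reads of ERG where none had been found. ERG, the closest relative of FLI1, had 0 counts in the 3 controls of experiment 2, 14, 2 and 15 counts in EZH2 KO clones 1, 2 and 3, and 28, 20 and 15 counts in SUZ12 KO clones 1, 2 and 3. It also had 0 counts in every other A673 clone library. Every PRC2 knockout library thus had ERG reads, at levels of at most 1.35 CPM, and with a floor of 3 counts per control library the level was at least 3.07-fold higher in EZH2 KO and at least 6.05-fold higher in SUZ12 KO. ERG passed the filter on low counts only through the knockout libraries, and with EZH2 KO and the controls alone it did not enter the fit, so its call in both comparisons adds nothing to these counts. ERG is also an endothelial gene, and of 5 endothelial markers tested CLDN5 (log2 fold change 3.37 and 4.20) and PECAM1 (1.95 and 2.25) were higher in EZH2 KO and SUZ12 KO and EMCN was lower (-2.27 and -2.62). Only 1 of the 8 listed passed the filter in the STAG2 KO fit, so some of the 5 may have entered here only through the PRC2 knockouts. The summed level of the 8 was 8.91 to 17.93 and 7.80 to 22.57 CPM against 19.45 to 62.48 in A673 controls. The part of these markers in the result was not tested.

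ETS1 and ETS2 were higher in both knockouts. ETS1 was at 39.7, 31.8 and 37.6 CPM in EZH2 KO and at 36.8, 32.1 and 56.8 in SUZ12 KO, against 5.56, 5.05 and 2.37 in the shared controls. All 6 knockout libraries lay far above the 3 controls. ETS1 rose by 3.09 in EZH2 KO (SE 0.915, adjusted p = 0.0405) and by 3.30 in SUZ12 KO (SE 0.922, adjusted p = 0.0254), but leaving out a library kept the call in only 2 of 12 and in 8 of 12 fits. All groups of experiment 2 shared the estimate of spread, and ETS1 differed widely between STAG2 KO clones. ETS2 was at 56.2, 61.0 and 80.4 CPM in EZH2 KO and at 58.3, 69.9 and 66.3 in SUZ12 KO, against 32.5, 31.9 and 33.1 in the controls. Again no library overlapped, and ETS2 rose by 1.04 (SE 0.142, adjusted p = 0.000826) and by 1.02 (SE 0.142, adjusted p = 0.000619), with the call kept in all 12 fits of each.

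The fusion genes and the PEA3 group did not pass the test in either knockout. EWSR1 was at 311.5, 275.1 and 307.9 CPM in EZH2 KO and at 298.8, 251.1 and 336.0 in SUZ12 KO, below the 3 controls at 359.1 to 371.7, with log2 fold changes of -0.28 and -0.29 (adjusted p = 0.187 and 0.15). FLI1 had values of -0.15 and -0.25 (adjusted p = 0.643 and 0.407). ELK3 was below all controls in both knockouts, at -0.56 and -0.43 (adjusted p = 0.148 and 0.241). ETV5 was above all controls in EZH2 KO, at 0.65 (adjusted p = 0.283), and at 0.52 in SUZ12 KO (adjusted p = 0.370). When only EZH2 KO and the controls entered the fit, ETV5 (0.65) and ELK3 (-0.57) were called and the adjusted p of ETS1 was 0.000351.

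Called higher were 3 of 10 members in EZH2 KO, against 15.7% of 15130 genes, 12% higher and 3.69% lower, and 3 of 10 in SUZ12 KO, against 20.6%, 14.7% higher and 5.87% lower. These counts include ERG, and no member was called lower in either. The median over the members was -0.06 and -0.14, against 0.04 and 0.01 over all genes. The 2 comparisons share their 3 controls, which are also those of the STAG2 KO clones of experiment 2, so their values stand side by side and are not independent. Summed blood cell markers (7 genes, mostly CD79A, with CD3E and HBB at 0) moved with the knockouts, from 8.37 to 19.04 CPM in A673 controls to 33.86 to 47.71 in EZH2 KO and 31.43 to 41.39 in SUZ12 KO, and their part in the result was not tested.

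The 3 STAG2 KO clones of experiment 2 were compared directly with the 6 PRC2 knockout clones. ERG had 0 counts in all 3 STAG2 KO clones and 2 to 28 counts in the PRC2 knockouts, and it entered the fit only through the latter. ETS2 differed by 0.06 (SE 0.121, adjusted p = 0.725) and ETS1 by -0.82 (SE 0.742, adjusted p = 0.436), ETS1 ranging from 0.532 to 43.5 CPM in STAG2 KO and from 31.8 to 56.8 in PRC2 KO. ETV1 was at 0.67 (adjusted p = 0.0675) and ELK3 at 0.57 (adjusted p = 0.0594), and DESeq2 called both. The only member called was ERG, 1 of 10, against 29.7% of 15130 genes, 13.8% higher and 15.9% lower in STAG2 KO.

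The neighbours of both gene pairs were read in the same fits, within 2.5 Mb of the ETS1 or the ERG start. Around ETS1, 18 genes were tested in STAG2 KO, where ETS1 was higher and the homeobox gene BARX2 (-1.89, SE 0.332, adjusted p = 0.00417) and the protease gene ADAMTS15 (-3.23, SE 0.514, adjusted p = 0.00244) fell. In EZH2 KO 3 of 20 genes were called, all higher: ETS1, the adhesion gene KIRREL3 (3.70, SE 0.442, adjusted p = 0.000375) and the membrane protease gene ST14 (2.91, SE 0.496, adjusted p = 0.00260). The same 3 genes were called in SUZ12 KO, KIRREL3 at 5.31 and ST14 at 3.74. KIRREL3 and ST14 did not pass the filter on low counts in the STAG2 KO fit, which includes these controls. They may thus have entered here only through the PRC2 knockouts, which would leave their calls without weight. FLI1, whose start lies 98.98 kb from that of ETS1, was called in none of the 3. Around ERG, ETS2 was called in all 3 knockouts, ERG in both PRC2 knockouts, and MORC3 in STAG2 KO (0.42, SE 0.0957, adjusted p = 0.0157), of 14 to 16 genes tested. The call of ERG has no weight, since ERG passed the filter on low counts only through the PRC2 knockouts. The starts of KIRREL3, ST14, BARX2 and ADAMTS15 lie 788 to 1861 kb from that of ETS1. Over all genes tested, 12.4% were called in STAG2 KO, 15.7% in EZH2 KO and 20.6% in SUZ12 KO. Against these shares the counts of called genes do not set either region apart.

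**Figure D4:**
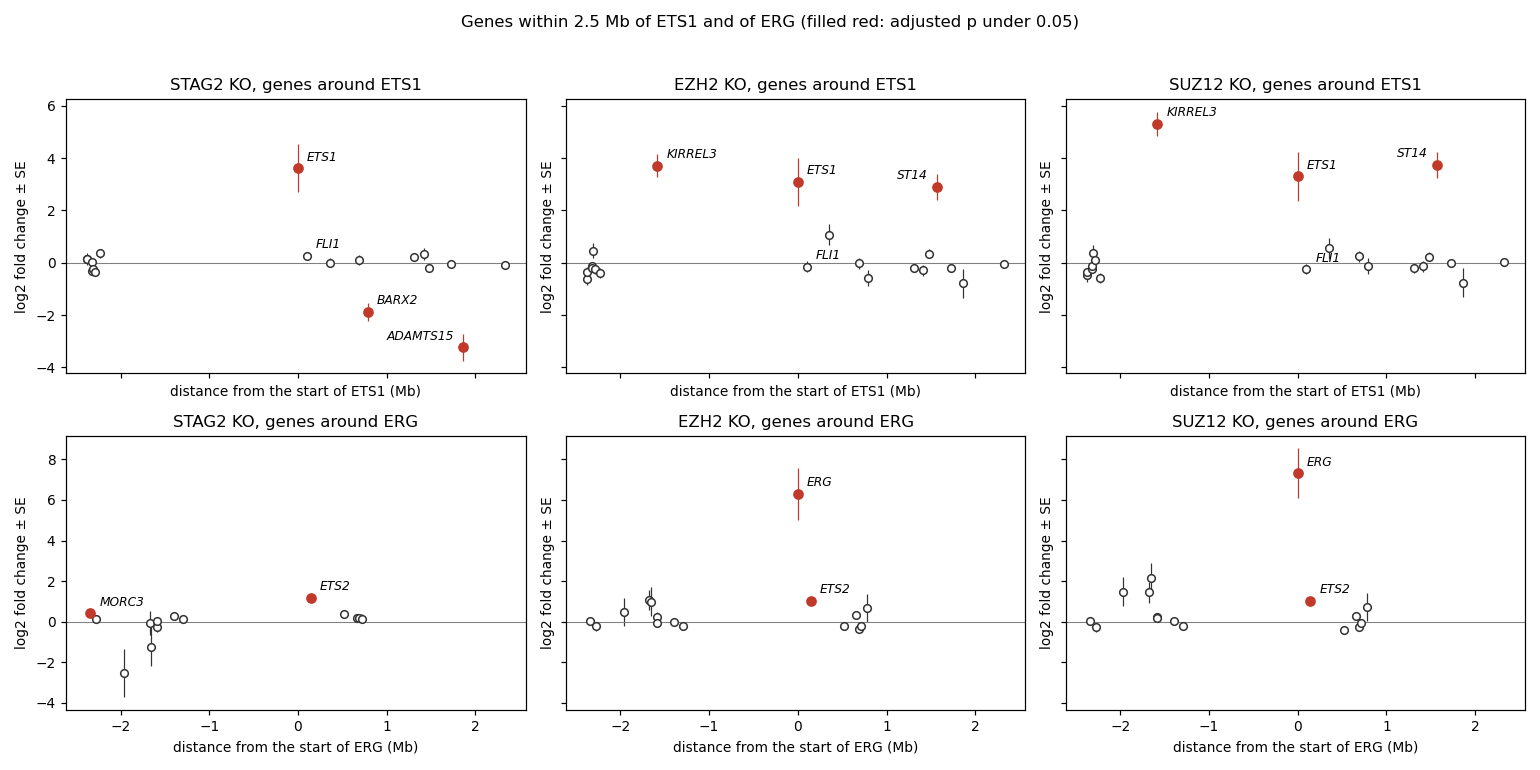
Log2 fold change (vertical axis) of genes by distance of their start from that of ETS1 or ERG (horizontal axis), for STAG2 KO, EZH2 KO and SUZ12 KO, with called genes marked. Around ETS1 3 genes are called in each knockout, and ETS2 is called near ERG in all 3. Over all genes tested the shares called were 12.4% in STAG2 KO, 15.7% in EZH2 KO and 20.6% in SUZ12 KO.

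After the transient loss of STAG2 in A673, the PEA3 group and ETS2 were higher. STAG2 itself fell from 1050 ± 51.4 to 158.9 ± 18.6 normalized reads (SD, n = 3 each). ETV4 was at 94.4, 76.0 and 100.4 normalized reads in mock libraries 1, 3 and 2 and at 147.4, 159.8 and 143.0 in siSTAG2 libraries 2, 1 and 3, without overlap. It rose by 0.74 on the log2(value + 1) scale (SE 0.132, adjusted p = 0.000205, limma with Benjamini-Hochberg adjustment, as for the knockdown throughout), and the call held in all 6 fits that left out a library. ETS2 was at 128.7, 150.0 and 144.7 in mock and at 201.2, 180.8 and 167.1 in siSTAG2 libraries, again apart, and rose by 0.37 (SE 0.114, adjusted p = 0.0202). ETV1 rose by 0.27 (SE 0.0885, adjusted p = 0.0292), from 279 ± 13.9 to 338 ± 28.3. ETV5 rose by 0.26 (SE 0.0753, adjusted p = 0.0134), its libraries overlapping at 878.8 to 1050 in mock and 1009 to 1212 in siSTAG2. Leaving out a library kept the call of ETS2 in 4 of 6 fits and those of ETV1 and ETV5 in 2 of 6 each.

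The fusion genes were not called in the knockdown, and ETS1, the chromosome 11 neighbour of FLI1, was too scarce to be tested. EWSR1 had a log2 fold change of 0.09 (SE 0.0787, adjusted p = 0.493) and FLI1 of 0.12 (SE 0.0952, adjusted p = 0.40). ETS1 had at most 2 reads in any of the 6 libraries and ERG none. ETV6 and ELK3 had values of 0.09 and -0.01 (adjusted p = 0.639 and 0.97). Called higher were 4 of 8 members, against 20.5% of 12060 genes, 9.54% higher and 11% lower, and the median over the members was 0.19, against 0.01 over all genes. The knockdown and the STAG2 KO clones share no library, and the values of ETV4 (0.74 and 0.95), ETV1 (0.27 and 0.40), ETV5 (0.26 and 0.11) and ETS2 (0.37 and 1.17) stand on scales that were set separately.

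In SK-N-MC and A4573 the clearest gap was that of ETV5, in the direction of less ETV5 without STAG2. SK-N-MC had 83 counts of ETV5 without and 1023 with STAG2 (2.74 and 31.4 CPM), a log2 ratio of -3.49 with an exact Poisson 95% interval of -3.86 to -3.19. A4573 had 66 counts without and 3023 with STAG2 (2.14 and 97.0 CPM), a log2 ratio of -5.46 (-5.88 to -5.15). With 1 library per arm there is no replicate check and no test, and the intervals cover counting error only. In A673 the same gene did not pass the test after the knockout and rose after the knockdown. Its lowest level of all A673 clone libraries, 31.8 CPM, was that of STAG2 KO clone 5. The other STAG2 KO libraries lay above every control of their own experiment. They were at 118.7 and 143.5 CPM against 104.0 to 107.1 in experiment 1, and at 97.0 and 108.8 against 67.6 to 89.0 in experiment 2.

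ETV4 was scarce in these lines, with 1 count without and 9 with STAG2 in SK-N-MC and 3 and 44 in A4573 (log2 ratios -1.81, interval -8.52 to -0.21, and -3.19, interval -6.19 to -2.22). ERG had 0 and 1 counts in SK-N-MC and 1 and 13 in A4573 (-2.32, interval -9.10 to -0.95). With so few counts these intervals are wide. The fusion genes stayed within 2-fold: FLI1 had 2074 counts without and 1904 with STAG2 in SK-N-MC (0.23, 0.14 to 0.32) and 1048 and 1533 in A4573 (-0.53, -0.65 to -0.42), and EWSR1 had log2 ratios of 0.11 and 0.53. FLI1 reads were 17.7% and 16.2% of EWSR1 reads without and with STAG2 in SK-N-MC, and 8.09% and 16.9% in A4573. ETS2 had 1348 and 1347 counts in SK-N-MC and 831 and 879 in A4573, with log2 ratios of 0.11 and -0.07. ETS1 had at most 3 counts in SK-N-MC and 31 and 53 in A4573.

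Past 2-fold were 2 of 8 members compared in SK-N-MC, ETV4 and ETV5, against 21.6% of 16413 genes, 10.1% higher and 11.5% lower. In A4573 they were 3 of 10, ERG, ETV4 and ETV5, against 22.1% of 16124 genes, 7.34% higher and 14.8% lower. All were lower without STAG2. The SK-N-MC arms also differed in PTPRC, the common leukocyte gene, with 1776 counts without and 99 with STAG2, while CD79A was at 21.6 and 24.8 CPM and EMCN at 20.8 and 45.2, and the part of such differences in the result was not tested. STAG2 had 5626 counts without and 9648 with STAG2 in SK-N-MC and 1028 and 2730 in A4573, so its transcript remained in both arms labelled or described as lacking it.

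**Figure D5:**
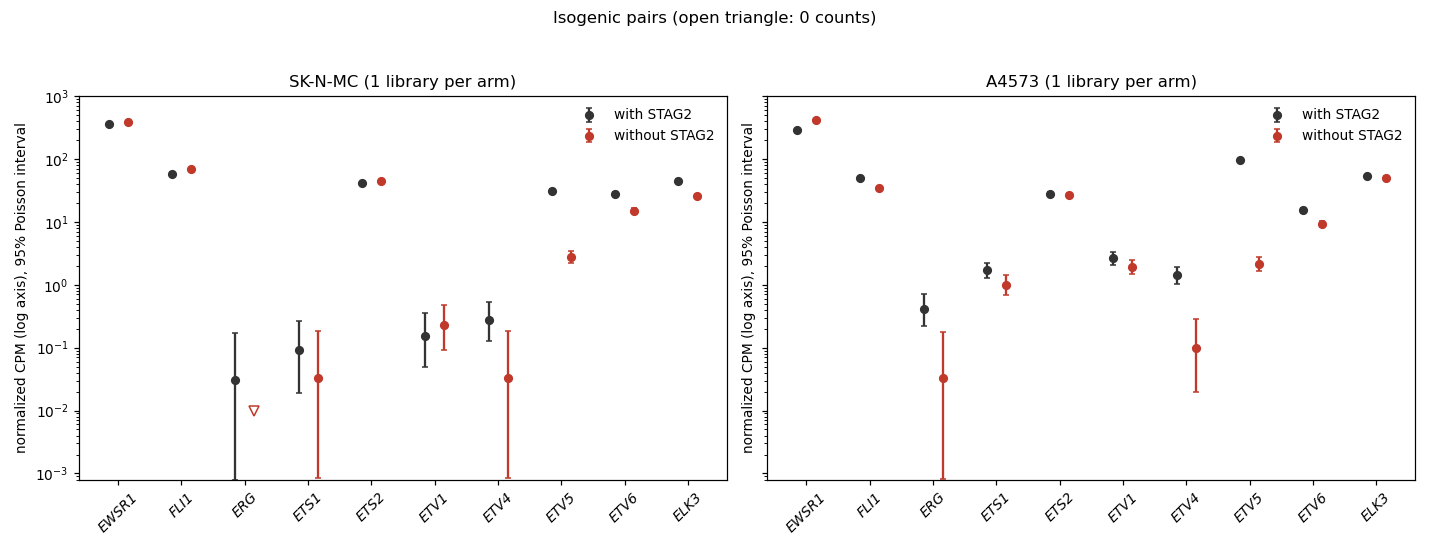
Normalized CPM (log axis) of each member without and with STAG2 in SK-N-MC and A4573, with 1 library per arm, exact Poisson 95% intervals as bars and open triangles for 0 counts. ETV5 is at 2.74 against 31.4 in SK-N-MC and 2.14 against 97.0 in A4573.

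The 2 kinds of control were compared as a check of the background. Between the WT clone (n = 5) and the parental line (n = 3), none of 9 members was called by edgeR or DESeq2, against 2.72% of 14167 genes, 1.76% higher and 0.96% lower in the WT clone. An unadjusted p below 0.05 was reached by 3 members, ETS1 (0.76, adjusted p = 0.255), ETV4 (-0.47, adjusted p = 0.209) and ETV6 (-0.27, adjusted p = 0.291). ETS1 was at 0.0479 to 5.56 CPM over the 8 controls, the widest relative range among members with reads there.

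Among 19 further ETS genes, FEV, an alternative fusion partner of EWSR1, moved most. FEV was at 1.47 ± 0.851 CPM in the controls of experiments 1 and 2 (n = 6) and at 10.3 ± 10.8 in STAG2 KO (n = 5), with overlap, and rose by 2.83 (SE 0.690, adjusted p = 0.0212). It was at 24.1 ± 3.05 in EZH2 KO and 31.8 ± 14.4 in SUZ12 KO (n = 3 each) against 0.805 ± 0.552 in their controls, rising by 4.90 (SE 0.969, adjusted p = 0.00596) and 5.29 (SE 0.982, adjusted p = 0.00302). In the knockdown FEV rose from 21.1 ± 0.681 to 61.2 ± 8.63 normalized reads (1.48, SE 0.212). It pointed the other way without STAG2 in SK-N-MC (42 counts against 334). Of the further ETS genes, 2 of 9 tested were higher and 1 lower in STAG2 KO, with ELK4 (0.57) and ETV3 (-0.46) beside FEV, against 12.4% of all genes called. In EZH2 KO 1 of 11 was higher and 1 lower (15.7% of all genes called), in SUZ12 KO 1 and 2 (20.6%), in STAG1 KO 0 of 10 (5.27%) and in the knockdown 1 and 1 of 10 (20.5%), which are close to those shares. ETV3 fell in both PRC2 knockouts (-0.76 and -1.06). TAF15, a gene of the FET family, fell in EZH2 KO (-0.71, adjusted p = 0.0114) and SUZ12 KO (-0.61, adjusted p = 0.0176).

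Genes commonly described as activated by EWS::FLI1 split between directions while FLI1 and EWSR1 did not pass the test. Of 16 such genes, 2 were higher and 5 lower in STAG2 KO (median -0.31, against 0.04 over all genes, of which 6.67% were higher and 5.76% lower), among them PPP1R1A, a phosphatase inhibitor (-1.32, adjusted p = 0.00105), and PRKCB, a protein kinase C (-0.97, adjusted p = 0.00328), whereas NR0B1, a nuclear receptor, rose (0.78, adjusted p = 0.00859). In the knockdown 2 were higher and 10 lower (median -0.30, with 9.54% of all genes higher and 11% lower), with CCK at -1.24, PPP1R1A at -0.97 and STEAP1 at -0.63. In EZH2 KO 4 were higher and 1 lower, and in SUZ12 KO 5 were higher and 2 lower, where calls over all genes also leaned higher (12% against 3.69% and 14.7% against 5.87%). NKX2-2, a homeobox factor, rose by 1.74 and 2.03, PAX7 by 1.27 and 1.62 and PRKCB by 1.19 and 1.48, while CAV1 fell by 0.99 and 1.15 on the log2 scale. PRKCB was thus at 160 ± 40.9 CPM in STAG2 KO, 324 ± 66.0 in the controls of experiments 1 and 2, 595 ± 45.3 in EZH2 KO and 725 ± 23.5 in SUZ12 KO. In STAG1 KO 1 was higher and 2 lower (2.77% and 2.5% of all genes), BCL11B at -1.21 and GLI1 at -0.76.

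Of 7 genes commonly described as repressed by the fusion, SPRY1, an inhibitor of receptor tyrosine kinase signalling, fell in STAG2 KO (-1.87, adjusted p = 0.0193), EZH2 KO (-2.13, adjusted p = 0.0312), SUZ12 KO (-2.60, adjusted p = 0.0103) and the knockdown (-0.76, adjusted p = 0.0148). CDKN1A, the cell cycle inhibitor p21, rose in EZH2 KO (2.86), SUZ12 KO (2.35) and STAG1 KO (2.0). The counts were 0 higher and 2 lower in STAG2 KO, 1 and 1 in each PRC2 knockout, 1 and 0 of 6 tested in STAG1 KO and 0 and 2 of 4 in the knockdown. The shares of all genes called were 12.4% in STAG2 KO, 15.7% and 20.6% in the PRC2 knockouts, 5.27% in STAG1 KO and 20.5% in the knockdown, and with so few genes the list is not set apart by these counts.

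The genes whose levels followed the members most closely were looked up over the 22 A673 clone libraries, centred within each experiment, among some 11040 genes averaging 5 CPM or more. These correlations are descriptions, and the libraries share clones, depth and knockouts. Nearest to EWSR1 were NCOA5 (Pearson r 0.943), EXOSC10 (0.930) and LINC00680 (0.928), and nearest to FLI1 were GRSF1 (0.978), KIF3B (0.967) and PPHLN1 (0.953). Nearest to ERG were SHH (0.951), GATA4 (0.938) and GDF10 (0.926). SHH, GATA4 and GDF10 averaged 21.0, 60.9 and 23.2 CPM in the PRC2 knockouts and 0.041, 0.0077 and 0.12 in A673 controls. They reached 5 CPM only through the PRC2 knockouts, the only clone libraries with ERG reads. Their correlations with ERG therefore restate that split and carry no weight of their own. Nearest to ETS1 were PHACTR1 (0.909), DUSP7 (0.906) and SOX6 (0.902).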

How the data were processed

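RNA-seq was measured in 32 libraries of human Ewing sarcoma cell lines, grouped by the submitters' labels. Libraries were oligo(dT) primed and non-directional, with 86-nt single-end reads. Per the study's methods and the submitters' processing notes, the authors aligned reads to hg38 with TopHat2 2.0.0 and Bowtie 0.12.7 (2 mismatches and 5 multi-hits allowed), with SAMtools 0.1.16. The counter and its annotation are not given in the sources used here.

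The authors deposited raw counts per gene symbol for the clones and the other lines. For the knockdown the authors deposited counts divided by size factors (a signal, not counts), of which 100% were whole reads when rescaled (tolerance 0.1). From these, 92 spike-in rows were left out, and 56104 IDs matched a symbol.

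Counts were fitted with edgeR 4.0.16 (TMM, filterByExpr, quasi-likelihood test) and the knockdown with limma 3.58.1 on log2(value + 1) for genes with a mean of at least 10, under R 4.3.3. Experiment was a term where experiments were pooled. All p-values were adjusted by Benjamini-Hochberg over all genes tested, with a threshold of 0.05. DESeq2 1.42.0 was an alternative, beside other filters, normalizations and pseudocounts, leaving out each library, single experiments and other control sets. Pairs with 1 library per arm were compared by counts with exact Poisson 95% intervals, and called past 2-fold (prior count 2). Scripts were tested on simulated data.

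Genes were named by rule: all members, and per list up to 4 genes called without overlap between groups. ELK4, and FEV and ETV3 in STAG2 KO, fell outside it and were named after their values were seen. The members and lists were chosen with earlier results of these data known. The column numbers 5 and 24 (STAG2 KO) and 1, 5 and 7 (STAG1 KO) do not match clone numbers in the labels, so these columns were mapped to their group only.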

Additional observations from a re-analysis of the deposited data

Results flagged for a closer look

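ETV5 in STAG2 KO clone 5 of experiment 2 was at 31.8 CPM, far from the other 4 STAG2 KO libraries of experiments 1 and 2, its gap to the nearest of them being 0.740 of the range of the group. In all, 18 groups of libraries were looked at in this way, and chance flags about 1 in 20. This clone also stood apart over all genes.

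ERG differed between STAG2 KO and the PRC2 knockouts of experiment 2 by a fitted -6.81 on the log2 scale. STAG2 KO had no read of ERG and the 6 PRC2 knockout libraries had 2 to 28 counts, so the value depends on the prior count, and ERG entered the fit only through the PRC2 knockouts, which leaves the test without weight.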

How the results depend on the processing

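No member changed the direction of a called value under the alternatives run. Over the members' values 992 kept their side of the threshold, 24 passed it and 41 lost it. Some values that were not called changed direction. ETV5 in STAG2 KO, for example, was at 0.11 in the main fit and at -0.04 without clone 3 of experiment 2. When each library was left out in turn, STAG2 KO gave 1053 to 4048 genes and 1 to 7 members (main 1687 and 2), EZH2 KO 1169 to 3885 and 1 to 4 (2377 and 3), SUZ12 KO 1874 to 4797 and 2 to 3 (3112 and 3), STAG2 KO against PRC2 KO 3139 to 6601 and 1 to 4 (4495 and 1), STAG1 KO 0 to 1310 and 0 to 4 (757 and 3), the difference of the STAG2 KO and STAG1 KO effects 195 to 1860 and 0 to 1 (898 and 0), WT clone against parental 98 to 953 and 0 to 1 (385 and 0), and siSTAG2 1750 to 2533 and 1 to 3 (2476 and 4). For STAG2 KO, experiment 1 alone gave 3663 genes and 4 members and experiment 2 alone 494 and 1, while the WT clone as the only control and the summed WT clone libraries of experiment 1 each left 1 member. DESeq2 gave 3 members for STAG2 KO against PRC2 KO, 1914 genes for STAG1 KO, 1546 genes and 1 member for the difference of effects, and 638 genes for WT clone against parental, where dropping the filter on low counts gave 741. The cause was not tested, beyond that some settings hold fewer libraries.

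Mock and siSTAG2 libraries share replicate numbers. The deviations of same-numbered libraries correlated at 0.026, 0.037 and 0.004, and mock library 3 correlated more with siSTAG2 library 1, so the numbers were not taken to pair the samples. With the replicate block 2881 genes and 4 members were called.

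Depth limits ERG and, outside the knockouts, ETS1, which had a few counts or none in many libraries. Clones, and the single libraries of SK-N-MC and A4573, limit the rest.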
